A study of Mus musculus with 12 samples.

Results

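Fat cells lie between the fibres of skeletal muscle and add to the RNA of a whole muscle, while a C2C12 culture is grown from a myoblast line. The 8 adipocyte genes described here are Adipoq, Lep, Retn, Cfd, Fabp4, Plin1, Cidec and Cidea. They are 8 of the 27595 gene names on the array, and were matched by their name on every probe, with Plin1 under its older name Plin. Together they had 11 probes: 3 for Fabp4, 2 for Retn and 1 for each of the others. The RNA came from 4 groups of 3 samples each, hybridised to 12 one-colour Agilent mouse arrays. Soleus is a slow oxidative hind limb muscle and extensor digitorum longus (EDL) a fast glycolytic one, both from 3-month-old male CD1 mice, with both hind limbs of 1 mouse pooled per sample. The labels do not say whether a soleus and an EDL sample came from the same mouse. C2C12 is a mouse myoblast line; its myotubes were differentiated for 96 hours and purified by trypsin detachment and re-plating, and its myoblasts were collected while dividing at about 50% confluence. The labels name no transgene or drug.

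Adipocytes store triglyceride in a large lipid droplet and release hormones. Adiponectin (Adipoq) and leptin (Lep) act on muscle and brain through their receptors. Resistin (Retn) is an adipocyte hormone in mice, and adipsin (Cfd) is complement factor D, the serine protease that cleaves factor B in the alternative complement pathway. Fabp4 carries fatty acids inside fat cells and is also made by capillary endothelium and macrophages. Perilipin 1 (Plin1) coats the droplet and controls access of lipases, and Cidec and Cidea are droplet proteins that promote droplet fusion, Cidea being best known from mouse brown fat.

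All values are normalized log2 signals: the log2 of the processed spot signal less the 75th percentile of its array, with 9.71 added back. A difference of 1 on this scale is a doubling. Between 57.36% and 72.82% of the probes were well above background per array. The lowest level at which a probe was well above background lay between 3.49 and 4.84 on the soleus arrays, 3.90 and 4.97 on the EDL arrays, 3.24 and 3.80 on the myotube arrays and 2.63 and 3.22 on the myoblast arrays. The replicate number is the slide, each of the 3 slides holding 1 array of every group. Slide 1 was scanned on another day and had the lowest share of probes above background in each group (57.53% on soleus, 57.36% on EDL, 61.21% on myotube and 63.1% on myoblast). Every group kept the same place on all 3 slides, so an effect of place cannot be told apart from one of group. Levels of different probes are not comparable with each other, because each probe has its own response.

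Promoter sequences are shown for 3 of the genes whose levels separated soleus, EDL and cultures on this array, each holding a searched motif. They are the 250 bases before the transcription start in RefSeq, build GRCm38.p6, read 5′ to 3′ on the gene's strand; the array's own probe positions are in build mm8 and were not converted. The table matched 6 of the 8 genes with 7 promoters, and Fabp4 and Cidea were not matched. Cfd also separated the groups, but its promoter held none of the searched motifs and is not shown. The first listed start of Cidec held none either and is not shown. Capitals mark CCAAT on either strand for Adipoq (chr16:23146286-23146535, plus strand), and TTGCNNAA, a C/EBP-type motif, for Plin1 (chr7:79732777-79733026, minus strand) and for the second listed start of Cidec (chr6:113434765-113435014, minus strand).
Adipoq: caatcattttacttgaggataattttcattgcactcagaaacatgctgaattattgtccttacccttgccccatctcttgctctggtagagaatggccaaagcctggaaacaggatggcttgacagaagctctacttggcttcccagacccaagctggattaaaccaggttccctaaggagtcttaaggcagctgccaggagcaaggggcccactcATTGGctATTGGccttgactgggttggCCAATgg
Plin1: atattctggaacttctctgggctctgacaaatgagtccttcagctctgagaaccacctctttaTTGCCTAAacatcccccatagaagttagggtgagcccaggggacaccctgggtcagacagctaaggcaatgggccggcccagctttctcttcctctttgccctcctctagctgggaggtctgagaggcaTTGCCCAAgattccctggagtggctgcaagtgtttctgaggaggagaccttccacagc
Cidec: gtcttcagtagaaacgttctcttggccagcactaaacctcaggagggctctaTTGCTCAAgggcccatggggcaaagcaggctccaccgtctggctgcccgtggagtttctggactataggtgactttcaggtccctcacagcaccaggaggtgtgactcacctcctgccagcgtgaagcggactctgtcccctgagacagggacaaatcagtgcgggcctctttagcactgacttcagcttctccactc
Adipoq held CCAAT at -7 to -3 and its reverse at -34 to -30 and -27 to -23, counted from the base before the start as -1. Plin1 held TTGCCTAA at -187 to -180 and TTGCCCAA at -58 to -51. Cidec held TTGCTCAA at -198 to -191. TTGCNNAA, searched on both strands, was in 3 of the 7 promoters (Lep, Plin1 and Cidec) and in 9.56% of all 32851 promoters of this length, and CCAAT was in 1 of the 7 and in 33.8% of all. TATAAA was in 0 of the 7 and 12.4% of all, AGGTCA in 0 and 14%, and CACGTG in 0 and 6.02%. A match is a description of the letters only.

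In soleus, 5 of the 7 adipocyte genes that could be tested were higher than in EDL, and none was lower. Cidea differed most, at 9.70-fold, followed by Cidec, Cfd, Adipoq and Plin1 at 3.08-fold to 2.14-fold. Fabp4 and Retn did not pass the test. Without any single one of the 6 muscle arrays the count was 3, as Plin1 and Cidec then missed the adjusted p. Of all 18862 genes tested, 4.94% were called higher and 4.8% lower in soleus than EDL, at an adjusted p under 0.05 and a log2 difference of at least 1. The median difference of the 7 genes was 1.43, against -0.05 over all genes tested. For 6 of the 7 all soleus arrays lay above all EDL arrays, as they did for 20.7% of all genes. Lep is the member left out of the test, because its probe was not well above background on all 3 arrays of any group. In these bulk samples, fewer cells of a type and less RNA per cell cannot be told apart. Scaling by spike-in RNA instead of the 75th percentile left 1 of these calls, Cidea. The others were then 1.21 (Adipoq), 1.33 (Cfd), 0.88 (Plin1) and 1.41 (Cidec), with adjusted p of 0.145 to 0.562, and the median of all genes moved to -0.27.

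**Figure D1:**
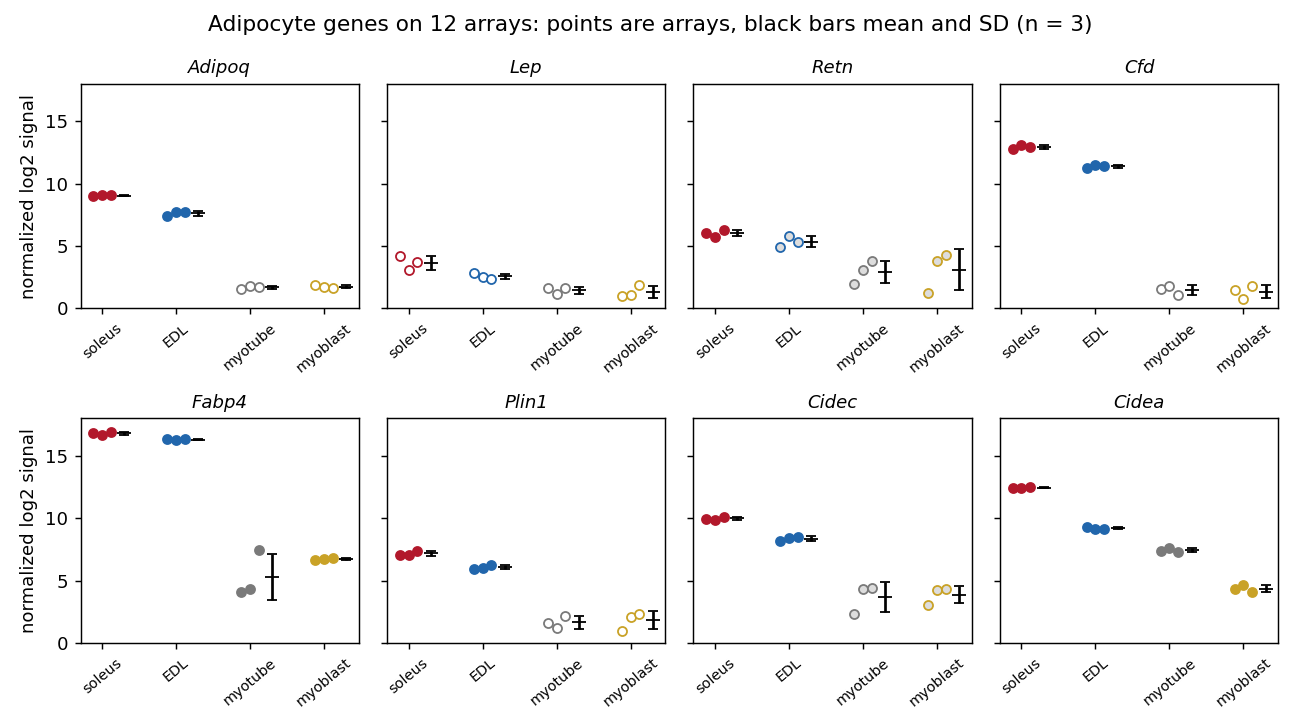
Normalized log2 signal of the 8 adipocyte genes (y axis) on 12 arrays of soleus, EDL, myotubes and myoblasts (x axis, 3 points each); the bars give the mean and SD, and Fabp4 and Retn are shown by the probe with the highest mean. Filled points mark groups well above background on all 3 arrays, grey-filled points groups above it on 1 or 2 arrays, and open points groups above it on none. For Adipoq, Cfd, Plin1, Cidec and Cidea all soleus points lie above all EDL points, and all muscle points above all culture points.

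Adiponectin, the hormone of mature fat cells, was measured by a probe at chr16:23072837-23072896 (build mm8, plus strand; exon and UTR annotation of that build was not used here). Adipoq had levels of 8.96, 9.06 and 9.10 in soleus, 7.39, 7.72 and 7.71 in EDL, 1.56, 1.76 and 1.73 in myotubes and 1.91, 1.70 and 1.64 in myoblasts. The muscles did not overlap, and neither culture was well above background on any array. Soleus minus EDL was 1.43 (SE 0.12, limma with Benjamini-Hochberg adjusted p = 8.33e-06), and 1.57, 1.34 and 1.38 on slides 1, 2 and 3. Since the cultures give only a bound, soleus was at least 47.7-fold and EDL at least 17.7-fold higher than myotubes (limma adjusted p = 1.24e-11 and 3.76e-11). These p-values come from a fit to myotube values below background and do not test the bound. Each bound sets the mean of the brighter group against, on each culture array, the higher of the probe's own level and the lowest level well above background. Against myoblasts, Adipoq was at least 68.8-fold higher in soleus and at least 25.5-fold higher in EDL.

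Adipsin, like Adipoq, was higher in soleus than in EDL and was not measured above background in the cultures. Its probe lies at chr10:79295686-79295745 (mm8, plus strand). Cfd had levels of 12.79, 13.06 and 12.94 in soleus, 11.25, 11.48 and 11.42 in EDL, 1.54, 1.81 and 1.07 in myotubes and 1.51, 0.75 and 1.77 in myoblasts. The muscles did not overlap. Soleus minus EDL was 1.55 (SE 0.26, limma adjusted p = 0.00111), between 1.53 and 1.58 on the 3 slides. Against myotubes the bound was at least 706-fold for soleus and at least 242-fold for EDL, and against myoblasts at least 1020-fold and at least 348-fold in the same order of muscles (limma adjusted p of 3.8e-11 to 2.08e-10). Here too the p-values come from a fit to culture values below background and do not test the bounds.

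Resistin was a dim signal. The probe that represents Retn covers chr8:3656107-3656928 (mm8, plus strand) and gave 6.07, 5.75 and 6.26 in soleus, 4.92, 5.78 and 5.35 in EDL, 1.98, 3.04 and 3.78 in myotubes and 1.22, 3.78 and 4.30 in myoblasts. EDL replicate 2 reached into the soleus range, and 2 EDL, 1 myotube and 2 myoblast arrays were well above background. Soleus minus EDL was 0.67 (SE 0.72, limma adjusted p = 0.542), where the SE includes the spread of the culture arrays. A limma fit of soleus and EDL arrays only, added after the data were seen, gave an SE of 0.252 and an adjusted p of 0.107. The other Retn probe, at chr8:3656145-3656966, gave 5.88, 5.76 and 6.42 in soleus and 5.10, 5.33 and 5.36 in EDL, without overlap, and a difference of 0.76 (SE 0.48, adjusted p over all probes 0.285). The spans of both probes overlap. On the first probe, soleus exceeded myotubes by 3.09 and EDL exceeded myotubes by 2.42 (SE 0.72 each, limma adjusted p = 0.00297 and 0.0116). Without slide 2, the EDL difference was 2.26 and its adjusted p 0.115. No myotube array was well above background on the second probe, which gave bounds of at least 5.88-fold for soleus and at least 3.48-fold for EDL over myotubes. With normexp background correction and quantile normalization, or with spike-in scaling, Retn was not called against either culture in either muscle.

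Leptin stayed at the edge of detection. Its probe at chr6:29023244-29023303 (mm8, plus strand) is printed in 10 spots per array. Lep had levels of 4.18, 3.07 and 3.72 in soleus, 2.80, 2.55 and 2.36 in EDL, 1.61, 1.15 and 1.65 in myotubes and 1.02, 1.09 and 1.85 in myoblasts. The 3 soleus values lay above the 3 EDL values, and those above the culture values. However, after outlier spots were left out, 3 of 27 soleus spots were well above background, all 3 on soleus replicate 3, against 0 of 28 EDL, 0 of 27 myotube and 0 of 26 myoblast spots. No fold or test is given for these levels.

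The 3 Fabp4 probes were well above background on every muscle array, and they differed in the cultures. The probe that represents the gene (A_51_P336833, chr3:10186983-10187043, mm8, minus strand) gave 16.86, 16.67 and 16.90 in soleus, 16.34, 16.24 and 16.32 in EDL, 4.09, 4.34 and 7.45 in myotubes and 6.67, 6.72 and 6.85 in myoblasts. Myotube replicate 3 stands apart: it was over 3 log2 units above the other 2 myotube arrays on this probe. On the probe A_51_P336830, which covers chr3:10187065-10187794, myotubes gave 4.54, 4.46 and 4.20 and myoblasts 6.78, 6.80 and 6.90, so replicate 3 was the lowest myotube array there. The probe A_52_P564544 (chr3:10190974-10191033) gave 11.41, 11.23 and 11.40 in soleus and 11.06, 10.91 and 10.78 in EDL, and was not well above background on any culture array.

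In all 3 Fabp4 probes the soleus arrays lay above the EDL arrays, by a small amount. On A_51_P336833 soleus minus EDL was 0.51 (SE 0.70, limma adjusted p = 0.642); that SE includes the spread of the myotube arrays. A fit of soleus and EDL arrays only, added after the data were seen, gave the same difference with an SE of 0.094 and an adjusted p of 0.0119. On A_51_P336830 the difference was 0.58 (SE 0.10, adjusted p over all probes 0.00146) and on A_52_P564544 it was 0.43 (SE 0.13, adjusted p over all probes 0.0274). None of these reached the log2 difference of 1 that a call needs. Against myotubes, A_51_P336833 was higher by 11.51 in soleus and by 11.00 in EDL (SE 0.70 each, limma adjusted p = 1.24e-07 and 1.65e-07), and A_51_P336830 by 12.48 and 11.91 in the same order. A_52_P564544 gave bounds of at least 236-fold in soleus and at least 175-fold in EDL.

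**Figure D2:**
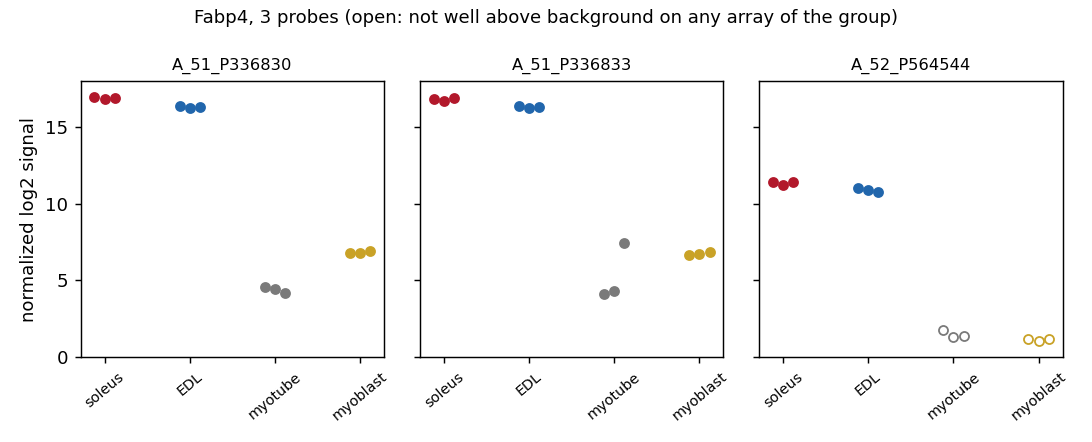
Normalized log2 signal (y axis) of the 3 Fabp4 probes on the arrays of soleus, EDL, myotubes and myoblasts (x axis, 3 points each; open points where no array of the group was well above background). Myotube replicate 3 is the highest myotube point on A_51_P336833, at 7.45, and the lowest on A_51_P336830, at 4.20.

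Perilipin 1 had a moderate signal in muscle and none well above background in culture. Plin1 (chr7:79594739-79594798, mm8, minus strand) had levels of 7.07, 7.07 and 7.41 in soleus, 5.97, 6.04 and 6.24 in EDL, 1.61, 1.18 and 2.21 in myotubes and 1.01, 2.08 and 2.37 in myoblasts. Soleus and EDL did not overlap. Soleus minus EDL was 1.1 (SE 0.35, limma adjusted p = 0.0345), between 1.04 and 1.16 on the 3 slides. Soleus was at least 13.2-fold and EDL at least 6.14-fold higher than myotubes, and at least 19.0-fold and 8.85-fold higher than myoblasts.

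Cidec had a steady level in both muscles and a scattered one in the cultures. At chr6:113390476-113390535 (mm8, minus strand) it gave 9.98, 9.88 and 10.09 in soleus, 8.16, 8.39 and 8.54 in EDL, 2.34, 4.34 and 4.42 in myotubes and 3.10, 4.26 and 4.33 in myoblasts. Slide 1 held the lowest array of each culture, and 2 arrays of each culture were well above background. Soleus minus EDL was 1.63 (SE 0.51, limma adjusted p = 0.036), between 1.5 and 1.82 on the 3 slides. Cidec exceeded myotubes by 6.29 in soleus and by 4.66 in EDL (limma adjusted p = 1.33e-06 and 1.35e-05). Without myotube replicate 1, which was not above background, these differences were 5.61 and 3.98.

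In the fit of all 4 groups, the soleus calls of Plin1 and Cidec were lost without any one of the 6 muscle arrays. The SE of that fit includes the spread of the culture arrays, which was wider than that of the muscle arrays. For Plin1 the SD was 0.52 in myotubes and 0.72 in myoblasts, against 0.19 in soleus and 0.14 in EDL. For Cidec it was 1.18 and 0.69, against 0.11 and 0.19, in the same order. Neither call was lost when a single culture array was left out. Without any single one of soleus replicates 1, 2 and 3 or EDL replicates 1, 2 and 3, Plin1 was between 0.99 and 1.18 with an adjusted p of 0.0606 to 0.104. Cidec was then between 1.52 and 1.71 with an adjusted p of 0.0679 to 0.093. Leaving out whole slides ended the call of Plin1 for slides 1, 2 and 3, with differences of 1.07 to 1.13 (adjusted p of 0.0557 to 0.181), and that of Cidec for slides 2 and 3, with differences of 1.69 and 1.66 (adjusted p of 0.197 and 0.179). Fitted on soleus and EDL arrays only, a fit added after the data were seen, Plin1 had an SE of 0.136 and an adjusted p of 0.00302, and Cidec an SE of 0.126 and an adjusted p of 0.000595. Normexp with quantile normalization gave 0.48 for Plin1 (limma adjusted p = 0.00164), which is under the size of a call.

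Cidea was above background on all 12 arrays. Its probe lies on chromosome 18. Cidea had levels of 12.43, 12.44 and 12.52 in soleus, 9.28, 9.13 and 9.15 in EDL, 7.36, 7.63 and 7.34 in myotubes and 4.37, 4.64 and 4.08 in myoblasts. No neighbours in this order overlapped. Soleus minus EDL was 3.28 (SE 0.14, limma adjusted p = 1.15e-07), and 3.16, 3.31 and 3.37 on slides 1, 2 and 3. EDL exceeded myotubes by 1.75 (SE 0.14, limma adjusted p = 8.94e-07), and by 0.78 with an adjusted p of 0.1 when spike-in RNA set the scale. Soleus exceeded myotubes by 5.02 (SE 0.14, limma adjusted p = 3.53e-10).

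**Figure D3:**
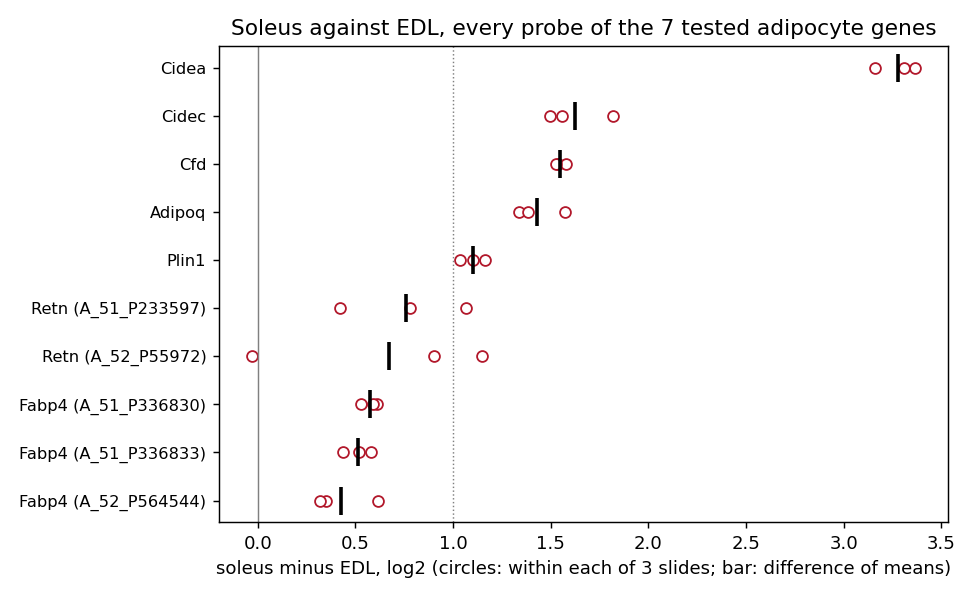
Difference in normalized log2 signal between soleus and EDL (x axis) for every probe of the 7 tested adipocyte genes (rows); circles are the differences within each of the 3 slides, bars the difference of group means, and the dotted line the size of 1 needed for a call. Cidea lies above 3 on all slides, Cidec, Cfd, Adipoq and Plin1 between 1.04 and 1.82, and the probes of Fabp4 and Retn between -0.03 and 1.15.

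Whether the size of the soleus excess varied among the genes cannot be settled by the permutation test used here. Each gene's level was set against that of Adipoq on the same array, which removes whatever scaling the array had, and soleus was compared with EDL by a two-sided exact permutation test of 3 against 3 arrays, in which 0.1 is the smallest p possible. The soleus excess of Cidea was 1.85 larger than that of Adipoq, and the groups did not overlap (exact p = 0.1). Those of Cfd and Cidec were 0.12 and 0.19 larger, with overlapping groups (exact p = 0.3 and 0.2). Those of Plin1, Retn and Fabp4 differed from that of Adipoq by -0.33, -0.76 and -0.92, without overlap (exact p = 0.1 each). These were 6 comparisons, and none can reach 0.05 in this permutation test.

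Between the muscles and the cultures, the 7 tested genes were called higher in each muscle. This count is no support for the group: Adipoq, Retn, Cfd, Plin1 and Cidec entered the test only because their probes were above background on all 3 arrays of a muscle, which they were not in either culture. The background share of genes called higher was 26.1% for soleus minus myotube, 28.4% for EDL minus myotube, 31.3% for soleus minus myoblast and 33.7% for EDL minus myoblast. With spike-in scaling those shares were 11.9%, 13.9%, 14.5% and 16.1%. The comparisons share the muscle or the culture arrays and are therefore not separate evidence. With normexp and quantile normalization Plin1 was 0.58 in EDL minus myotube and 0.59 in EDL minus myoblast, under the size of a call. Retn lost all 4 calls with that setting (0.15 to 0.35) and all 4 with spike-in scaling (0.90 to 1.91), and with spike-in scaling Cidea lost EDL minus myotube (0.78).

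Between myotubes and myoblasts, Cidea was the one adipocyte gene called, at 3.08 higher in myotubes (SE 0.14, limma adjusted p = 1.63e-08, 8.43-fold), and 2.99, 2.99 and 3.25 on slides 1, 2 and 3. Of all genes, 19.3% were called higher in myotubes. With normexp and quantile normalization the Cidea difference was 0.95, under the size of a call. Adipoq, Cfd, Plin1, Retn and Cidec differed by -0.19 to 0.13 with limma adjusted p of 0.679 to 0.862, and the first 3 of these were not above background in either culture. Fabp4 was -1.45 on its representing probe (SE 0.70, limma adjusted p = 0.0947). Without myotube replicate 3 that difference was -2.53 (adjusted p = 9.92e-08), and on A_51_P336830 with all arrays it was -2.43 (SE 0.10, adjusted p over all probes 9.11e-09). A_51_P336830 had the higher mean in soleus, EDL and myoblasts. A_51_P336833, chosen for its higher mean over all arrays, exceeded it only in myotubes (5.29 against 4.40), where replicate 3 stands apart. That Fabp4 was not called therefore depends on which probe represents it.

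Of 8 regulators of fat cell identity tested (Pparg, Cebpa, Cebpb, Cebpd, Srebf1, Klf15, Ebf2 and Zfp423), none was called higher in soleus than EDL. Over all genes tested 4.94% were called higher and 4.8% lower, so 0 of 8 is near the background share. Those shares are also the background of the list counts between the muscles that follow. Of the 8 regulators, 1 was called lower, with a median of 0.22 for the list. A limma p under 0.05 was reached by 5 of them, before and after adjustment, and after adjustment by 0 with spike-in scaling. Pparg, the nuclear receptor that drives fat cell differentiation, had means of 10.25 ± 0.06 in soleus, 9.89 ± 0.10 in EDL, 10.00 ± 0.03 in myotubes and 10.85 ± 0.06 in myoblasts (SD, n = 3 each), and soleus minus EDL was 0.36 (limma adjusted p = 0.00464). It was highest in the myoblasts. Cebpa, which acts with Pparg, came closest to a call at 0.97 (SE 0.16, limma adjusted p = 0.00103), and was called with quantile normalization and with the authors' values. Srebf1, a regulator of lipid synthesis, was lower in soleus by 1.27 (SE 0.11, limma adjusted p = 1.82e-05; means 12.65 in soleus and 13.92 in EDL), a call that spike-in scaling ended, at -1.49 with a larger SE of 0.42 (adjusted p = 0.0619). Klf15 was 0.07 apart between soleus and EDL (limma adjusted p = 0.8), while the cultures were not above background for it.

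Among other droplet and lipolysis genes, of which 10 of 11 were tested, 3 were called higher in soleus than EDL and none lower, with a median of 0.47. These were Plin3 at 1.69, Plin5 at 1.67 and G0s2, an inhibitor of the lipase Pnpla2, at 1.07 (limma adjusted p = 2.86e-07, 0.0102 and 2.39e-05). Plin5 is the perilipin of oxidative tissues including muscle fibres. With spike-in scaling Plin3 was still called, and Plin5 at 1.45 and G0s2 at 0.85 were not (adjusted p = 0.278 and 0.391). Lipe, hormone-sensitive lipase, had means of 8.93 ± 0.16 in soleus and 8.50 ± 0.27 in EDL (SD, n = 3 each), a difference of 0.43 (adjusted p = 0.228), and Plin4, another perilipin of fat and muscle, differed by 0.38 (adjusted p = 0.0573). Aqp7, the glycerol channel, was at 6.99 in soleus and 6.93 in EDL.

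Genes of fatty acid and triglyceride synthesis were split: of 14 tested from 15, 2 were called higher in soleus and 2 lower. Dgat2, which makes triglyceride, and Agpat2, an earlier step, were higher by 2.85 and 1.84 (limma adjusted p = 1.4e-06 and 4.77e-07). Gpd1, glycerol-3-phosphate dehydrogenase, and Me1, malic enzyme, were lower by 3.23 and 1.09, as differences of -3.23 and -1.09 (limma adjusted p = 5.53e-08 and 9.79e-05), and spike-in scaling ended the call of Me1, at -1.31 (adjusted p = 0.135). Fasn, fatty acid synthase, differed by 0.12 (adjusted p = 0.235) and Thrsp by -0.72 (adjusted p = 0.362). The SE for Thrsp includes the spread of the culture arrays. Its SD was 0.81 in myotubes and 1.18 in myoblasts, against 0.07 in soleus and 0.105 in EDL. Fasn was lower in both muscles than in both cultures, with means of 12.87 in soleus, 12.75 in EDL, 14.97 in myotubes and 16.28 in myoblasts.

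Other secreted products of fat were also split, with 2 called higher and 2 lower in soleus of 8 tested from 9. Angptl4, an inhibitor of lipoprotein lipase, was among the higher ones, by 2.02 (limma adjusted p = 5.85e-06), while Apln, apelin, was at -1.58 and Agt, angiotensinogen, at -1.49 (limma adjusted p = 0.00538 and 0.00109); spike-in scaling ended the calls of Apln and Agt, at -1.80 and -1.70 with larger SE of 0.54 and 0.51 (adjusted p = 0.0872 and 0.0849). Angptl4 was brightest in the myoblasts, with means of 10.75 in soleus, 8.72 in EDL, 11.85 in myotubes and 12.97 in myoblasts. Rbp4 and Rarres2, which fat cells release as retinol-binding protein and chemerin, differed by 0.49 and -0.77 (adjusted p = 0.248 and 0.0914). The SE behind these p-values includes the wider spread of the culture arrays. For Rbp4 the SD was 0.53 in myotubes and 0.56 in myoblasts, against 0.07 in soleus and 0.07 in EDL. For Rarres2 it was 0.62 and 0.51, against 0.19 and 0.12, in the same order. Of 5 receptors none was called and 3 had an unadjusted limma p under 0.05 (2 after adjustment), the adiponectin receptors Adipor1 and Adipor2 being at -0.33 and -0.51.

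In a list of brown and beige fat genes, of which 8 of 10 were tested, none was called higher in soleus and 2 were called lower. Ucp1, the uncoupling protein of brown fat, was not well above background on any soleus, EDL or myotube array, with means of 2.11 in soleus and 3.30 in EDL, so its called difference of -1.19 rests on values below background. Elovl3 was likewise not above background in either muscle. The other called gene was Tbx1, a transcription factor, at -2.41 (limma adjusted p = 1.53e-07). Cox7a1 and Cox8b, subunits of cytochrome oxidase that striated muscle also makes, differed by -0.09 and 0.14. In the alternative complement pathway, the partners of Cfd, 1 of 4 was called, C3 at -1.53 (limma adjusted p = 0.00276; with spike-in scaling -1.75 and not called, adjusted p = 0.0873); factor B (Cfb), the substrate of Cfd, differed by 0.35 (adjusted p = 0.0786).

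**Figure D4:**
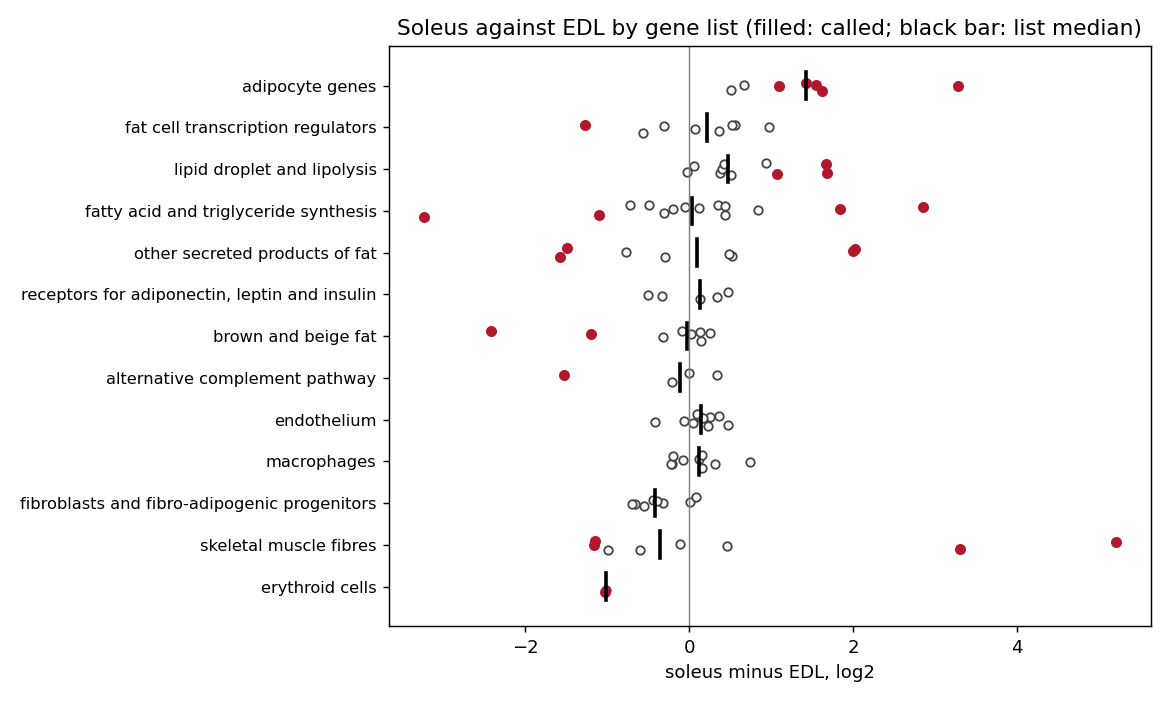
Difference in normalized log2 signal between soleus and EDL (x axis) for the genes of each list (rows); filled points are called genes, open points the others, and black bars list medians. The adipocyte genes have a median of 1.43, the endothelial genes of 0.15 and the macrophage genes of 0.12.

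Markers of the other cell types in muscle were also present, and their part in the adipocyte result was not tested. Of 10 endothelial markers, none was called by limma between the muscles and 1 had an unadjusted p under 0.05 (0 after adjustment), with a median of 0.15 and a range of -0.42 to 0.47. Their summed log2 level was 112.6 to 112.8 in soleus and 110.9 to 111.8 in EDL, against 33.2 to 39.1 in myotubes and 31.3 to 36.2 in myoblasts. Of 9 macrophage markers none was called and 1 had such a p (1 after adjustment), with a median of 0.12 and sums of 79.7 to 80.7 in soleus, 78.4 to 80.4 in EDL, 35.1 to 38.9 in myotubes and 30.0 to 33.2 in myoblasts. Of 8 markers of fibroblasts and fibro-adipogenic progenitors none was called and 4 had such a p (4 after adjustment, all lower in soleus). Their median was -0.41, with sums of 87.5 to 92.0 in soleus, 91.7 to 94.4 in EDL, 48.2 to 50.9 in myotubes and 48.7 to 54.1 in myoblasts. With spike-in scaling the medians turned to -0.07 for the endothelial and -0.10 for the macrophage markers, while that of the adipocyte genes was 1.21. No endothelial, macrophage or fibroblast marker then had an adjusted p under 0.05. The 7 adipocyte genes summed to 73.9 to 75.2 in soleus, 63.3 to 64.8 in EDL, 20.5 to 28.0 in myotubes and 19.8 to 25.3 in myoblasts.

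Most markers of those other lists were also called higher in muscle than in culture. All 10 endothelial, 8 of 9 macrophage and 7 of 8 fibroblast markers were called higher in soleus and in EDL than in myotubes. Over all genes tested, the shares called higher than in myotubes were 26.1% in soleus and 28.4% in EDL. Pecam1, Cdh5, Emcn and Tie1 of the endothelium, C1qa, C1qc and Adgre1 of macrophages, and Dpt and Thy1 of fibroblasts were not well above background on any culture array. Such markers entered the test only through the muscle arrays, so these counts are no support for the lists. The fibre markers, and Hba-a1 of red cells, also differed between the muscles: 2 of 8 fibre markers were called higher in soleus (Tnnt1 5.20 and Myh7 3.31, both slow-fibre genes) and 2 lower (Myh4 -1.16 and Ckm -1.15, neither called with spike-in scaling, at -1.37 each and adjusted p of 0.0543 and 0.08). Hba-a1 was at -1.02 (limma adjusted p = 0.00428; with spike-in scaling -1.24 and not called, adjusted p = 0.251) and Alas2 at -1.01 (adjusted p = 0.244). The SE for Alas2 includes the spread of the culture arrays. Its SD was 1.38 in myotubes and 0.775 in myoblasts, against 0.16 in soleus and 0.20 in EDL. Summed log2 levels of the fibre markers were 148.9 to 149.7 in soleus, 143.4 to 145.0 in EDL, 130.2 to 131.1 in myotubes and 74.8 to 75.2 in myoblasts. Their median soleus minus EDL was -0.36, so the higher soleus sum follows the large differences of Tnnt1 and Myh7.

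Among the adipocyte genes themselves, the patterns over the 12 arrays were most alike for Plin1 and Cidec, with a root mean square difference of 0.59 after each gene was centred on its own mean. Adipoq was next nearest to Cidec, at 0.83, and to Plin1, at 0.97. Fabp4 was nearest to Cfd, at 1.16, or 1.01 on the probe A_51_P336830, which lacks the high value of myotube replicate 3. These measures rest on 4 groups of arrays and are mostly set by the gap between muscle and culture, where levels below background have no order.

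Across all genes tested, the 5 patterns nearest to Adipoq were those of the transcript AK048793, Cyp2e1, Efr3b, Nova1 and Bend5, all at 0.34 to 0.36. None of these was above background on any culture array, so their order has no meaning. Those nearest to Cfd were Plbd1 (0.26), Ppp1r1a (0.43), Emcn (0.62), Thumpd1 (0.66) and Gpc4 (0.67). Except for Ppp1r1a, neither these genes nor Cfd itself were above background on any culture array, so their order has no meaning either. Soleus minus EDL was 1.42, 1.95, 0.25, 0.03 and 0.95 for these genes in that order, against 1.55 for Cfd. For Fabp4 the neighbours depended on the probe. On A_51_P336833, whose myotube replicate 3 stands apart, they were Ptprb (0.72), Gstk1 (0.82), Lum (0.89), Cdh5 (0.90) and Emcn (1.01), and on A_51_P336830, chosen after the data were seen, they were Kcnj8 (0.55), Ptprb (0.93), Kera (0.96), Emcn (0.97) and Sult1a1 (0.98). Of these, Ptprb, Cdh5 and Emcn are endothelial genes, while Lum is in the fibroblast list. The other neighbours were not assigned to a cell type, and the cell source of the Fabp4 signal was not tested. The gene nearest to Plin1 was Phactr1 (0.29), and nearest to Cidec were Slc36a2 (0.39) and Phactr1 (0.41). Retn was nearest to Pllp (0.39) and Gal3st1 (0.40). Cidea, which was above background on every array, had its nearest pattern in Apol6 (0.27), with means of 15.64 in soleus, 12.79 in EDL, 10.88 in myotubes and 7.45 in myoblasts.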

How the data were processed

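RNA of soleus, EDL, C2C12 myotubes and C2C12 myoblasts was hybridised to 12 arrays. Per the file headers, the scanner output that the authors deposited gives each spot's intensity after Agilent Feature Extraction 10.5.1.1 had subtracted background and removed spatial trends, before any normalization between arrays, and flags for spots above background or outlying. The authors' deposited table holds an intensity for 41267 probes, whose normalization is not given in the sources used here, and was an alternative only; its lowest correlation with the scanner values across probes was 0.9976 (EDL replicate 2).

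Of 43379 non-control spots per array, 68 to 140 outliers were left out and 0 were saturated. Signals were taken to log2, the 75th percentile of each array was subtracted and 9.71 added back. Spots of a probe were averaged (41174 probes). Gene names came from RefSeq through the accession of 24375 probes, the symbol of 6301, a synonym of 2426 and a secondary accession of 14, while 8058 kept the name in the file. A probe counted as above background on an array if at least 50% of its spots were; 28607 probes above it on all 3 arrays of a group were kept, and the kept probe with the highest mean represented a gene (18862 genes).

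The 4 group means were compared by limma, version 3.58.1, under R 4.3.3 (data.table package, version 1.17.8) without a block, two-sided, with 8 degrees of freedom from the residuals and 1.76 from the prior, with Benjamini-Hochberg adjustment over all genes in each of 6 comparisons. A call required a log2 difference of 1 or more in either direction with an adjusted p below 0.05. Where probes are tested, the adjustment runs over the kept probes. The test was also run on simulated data with independent noise of equal spread in all groups. That run lacked the shared slide deviations and unequal group spreads of these arrays, so no support is drawn from it. Figures and summaries used Python 3.11.15, numpy 2.4.6, pandas 2.3.3 and matplotlib 3.10.9. The number of arrays limits the precision, and the p-values measure the spread between these samples, which for the cultures may be technical.

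The replicate number in the labels is the slide. Samples on a slide deviated together, with correlations of 0.225 to 0.66 over all 18 pairs, so the numbers pair the samples, and a fit with the slide as a block was an alternative. The other alternatives were quantile normalization, normexp with quantile normalization, spike-in scaling (7 probes), no filter on dim probes, the mean over kept probes, the authors' values, fits of the compared groups only, and leaving out arrays or slides. The normexp setting added an offset of 50 to every background-corrected signal before log2, which makes the log2 differences of dim probes smaller. A loss of size in that setting is therefore not by itself a loss of the difference. All 8 adipocyte genes are named with every probe; of other lists, up to 3 called members a comparison with the largest differences, and members of the regulator and droplet lists where a count needed them. Klf15, Aqp7, Fasn, Thrsp, Rbp4, Rarres2, Adipor1, Adipor2, Elovl3, Cox7a1, Cox8b, Cfb and Alas2, and the markers not above background in cultures, were named after their values were seen. Of the list entries, Pck1 and Hbb-b1 had no matching probe, and Cideb, Lcn2, Otop1 and Tmem26 were not kept. The members and lists were chosen with earlier results of these data known. A called gene of the list of secreted products is counted but not reported here by name.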

Additional observations from a re-analysis of the deposited data

How the results depend on the processing

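The 7 tested genes gave 936 differences under alternatives, leaving out Adipoq, Cfd and Plin1 between myotubes and myoblasts, where neither culture was above background. Of these, 887 kept direction and call, 38 lost a call, 3 gained one and 8 turned sign. Several alternatives could change the p-value but not the difference. These were the slide block, the fit of the compared groups only, and leaving out an array outside the comparison. The total of kept values is therefore no measure of robustness. Of the 5 adipocyte genes called between soleus and EDL, 1 was called with spike-in scaling, and leaving out arrays or slides gave 3 to 5, with 3 called without any one of the 6 muscle arrays and without slide 2 or 3. Between myotubes and myoblasts 0 were called with normexp and quantile normalization (Cidea was 0.95 with an adjusted p of 2.73e-07, and 1 of 7 genes had an unadjusted limma p under 0.05), 2 with the mean over kept probes (Fabp4 -1.17), and 1 to 2 when arrays or slides were left out. Leaving out arrays or slides gave 6 to 7 in EDL against each culture, and 7 in soleus. With the replicate number as a block, so that samples were paired by slide, 5 adipocyte genes were called between soleus and EDL and no call of any adipocyte gene changed.

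Over all genes, normexp with quantile normalization called 910 in soleus minus EDL (1837 before), 5054 in soleus minus myotube (8561), 5272 in EDL minus myotube (9046), 6815 in soleus minus myoblast (10459), 7025 in EDL minus myoblast (10932) and 3751 in myotube minus myoblast (6685). Spike-in scaling called 844 in soleus minus EDL, and with no filter on dim probes 16578 were called in EDL minus myoblast. With spike-in scaling 37.1% of the soleus minus EDL calls were higher, against 50.7% with the 75th percentile; the shares were 20.0% against 57.4% for soleus minus myotube, 25.9% against 59.2% for EDL minus myotube, 21.1% against 56.5% for soleus minus myoblast, 25.2% against 58.2% for EDL minus myoblast and 36.9% against 54.3% for myotube minus myoblast. Without the dim-probe filter, Plin1 and Cidec lost the soleus call at adjusted p of 0.0584 and 0.0598, since more genes entered the adjustment. The sign turned for uncalled differences between myotubes and myoblasts, with arrays or slides left out: Retn ranged between -1.11 and 0.43 and Cidec between -0.59 and 0.48. Retn was 0.31 without myotube replicate 1, 0.17 and 0.43 without myoblast replicates 2 and 3, and 0.12 and 0.01 without slides 2 and 3. Cidec was 0.48 without myotube replicate 1, 0.02 without myoblast replicate 3 and 0.08 without slide 1. Spike-in scaling left 1 of 3 soleus calls in the droplet list, 3 of 4 in the synthesis list and 2 of 4 in the list of secreted products. Quantile normalization and the authors' values each called 1 regulator higher in soleus, Cebpa. The cause of these shifts was not tested. The authors' values lacked some culture arrays for Cfd and Plin1. Levels under background limit Lep, Retn and the culture values.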
